A study of Mus musculus with 6 samples.

Results

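The S100 family of calcium-binding protein genes was examined in 6 bulk RNA-seq libraries of sorted mouse pancreatic tumor cells. The 10 members are the rows of the deposited expression table with the symbols S100a1, S100a3, S100a4, S100a6, S100a8, S100a9, S100a10, S100a11, S100a14 and S100a16, out of 24493 genes. The table lists 17 S100 genes in all, and the 7 outside this set are given at their place below. All 10 members were tested: each reached 1 TPM in at least 2 libraries, and 13720 genes did so. TPM is a read estimate divided by transcript length and brought to 1 fixed sum per library, which lets genes be compared by level.

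The tumor cells carry the clone name 6419c5 in the sample titles, a single pancreatic tumor cell clone, and were sorted from subcutaneous tumors grown in C57BL/6 mice. Of the libraries, 4 came from untreated control tumors and 2 from tumors given GAFCP, as the titles name it: the chemotherapies gemcitabine and abraxane with a CD40 agonist and with blockade of both PD-1 and CTLA-4. Doses, times, the animals' age and the sort gate are not given here, and the labels do not say whether libraries came from separate animals. The p-values therefore rest on how far these libraries spread, and that spread may be technical. Depth is unknown because TPM keeps none, so that precision rests on the number of libraries.

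S100 proteins are small proteins with a pair of EF-hand calcium-binding loops, most of which work as dimers that change shape on binding calcium and then grip a partner. S100a8 and S100a9 form calprotectin, a metal-binding complex abundant in neutrophils and monocytes that acts outside the cell as an alarm signal through the receptors RAGE (Ager) and TLR4, and that stressed epithelia can also make. S100a14 is found mainly in epithelia, and S100a16 is grouped with it here as epithelial-type. S100a6, S100a10 and S100a11 bind annexins at membranes, and S100a4 is linked to cell motility and binds non-muscle myosin.

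All 10 members lie on chromosome 3 (positions from GENCODE M21 on GRCm38, which is mm10). The first stretch runs 184.7 kb from S100a1 to S100a9, S100a11 starts 2.82 Mb further on, and S100a11 and S100a10 span 44.2 kb together. S100a8 (90668978 to 90670035, plus strand) and S100a9 (90692632 to 90695721, minus strand) are 22.6 kb apart, with no overlapping annotated gene. RefSeq promoter windows on GRCm38.p6, from 250 bases before to 50 bases after an annotated start, were found for 8 of the 10 members. The windows of S100a8 and S100a9, the pair that rose, are shown beside that of S100a4, which fell, and that of S100a11, which was not called. Each is printed in the direction of transcription, with capitals marking the motif matches described after them.
S100a8, GRCm38 chr3:90668821-90669120, plus strand: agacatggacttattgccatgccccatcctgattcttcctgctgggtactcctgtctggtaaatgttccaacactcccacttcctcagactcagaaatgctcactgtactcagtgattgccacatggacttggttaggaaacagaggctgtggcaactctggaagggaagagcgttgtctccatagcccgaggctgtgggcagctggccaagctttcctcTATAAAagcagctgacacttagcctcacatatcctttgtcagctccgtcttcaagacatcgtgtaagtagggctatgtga
S100a9, GRCm38 chr3:90695672-90695971, minus strand: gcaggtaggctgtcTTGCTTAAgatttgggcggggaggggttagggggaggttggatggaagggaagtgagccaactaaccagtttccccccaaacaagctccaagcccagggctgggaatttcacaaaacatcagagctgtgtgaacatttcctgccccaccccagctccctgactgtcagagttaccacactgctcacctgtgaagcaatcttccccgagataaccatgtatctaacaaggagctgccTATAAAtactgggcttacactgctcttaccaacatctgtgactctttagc
S100a4, GRCm38 chr3:90603520-90603819, plus strand: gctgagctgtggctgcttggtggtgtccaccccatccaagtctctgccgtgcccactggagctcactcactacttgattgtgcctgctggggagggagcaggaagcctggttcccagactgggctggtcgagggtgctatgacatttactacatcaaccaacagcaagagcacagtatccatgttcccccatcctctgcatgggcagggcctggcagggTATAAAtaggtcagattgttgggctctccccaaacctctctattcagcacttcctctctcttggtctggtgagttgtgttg
S100a11, GRCm38 chr3:93520246-93520545, plus strand: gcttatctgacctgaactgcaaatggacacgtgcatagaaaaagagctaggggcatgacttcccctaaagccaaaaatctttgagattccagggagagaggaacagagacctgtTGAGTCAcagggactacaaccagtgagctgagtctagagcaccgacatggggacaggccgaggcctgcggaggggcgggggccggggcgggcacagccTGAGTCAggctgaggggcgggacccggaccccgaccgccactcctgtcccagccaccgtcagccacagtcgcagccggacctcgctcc

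Motifs were searched on both strands, no matches overlapped, and matches are letters, not shown sites of binding. TATAAA, the TATA box, which 13.6% of 32851 promoter windows hold, lay 30 bases before the start in S100a8, 31 bases before it in S100a4 and at the annotated start itself in S100a9. TTGCNNAA, a C/EBP-type motif held by 10.8% of windows, occurred in S100a9 at 236 bases before the start. TGANTCA, the AP-1 motif (7.81% of windows), occurred 2 times in S100a11. None of the 4 printed windows held GAAANNGAA, the core of the interferon-stimulated response element (8.56% of windows), TTCNNNGAA, the GAS element (8.3%), or GGGNNTTCC, an NF-kappaB-type motif (5.82%). Among the windows not printed, GAAANNGAA occurred in those of S100a1, S100a3 and S100a16, members that were not called higher.

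S100a8 and S100a9 were the members that rose with GAFCP, with mean TPM 4.29 and 4.01 times the control means, and 5 members fell by smaller amounts (S100a14, S100a4, S100a1, S100a6 and S100a16). Calls are those under 0.05 after adjustment over all genes tested, in limma on log2(TPM + 1). Of all genes tested 47.5% were called, 19.0% higher and 28.5% lower, beside 7 of 10 members, 2 of them higher and 5 lower. The members' median log2 change was -0.13, and that of all tested genes was -0.07. The share of members called is read against this high background. Libraries of the same group correlated across genes at 0.982 or more on the log2 scale, and libraries of different groups at 0.954 or less. With median-of-ratios scaling the split over all genes went from 2606 higher and 3909 lower to 3548 and 3321, and that of the members to 3 and 3. In these bulk samples fewer cells of a type and less RNA per cell cannot be told apart.

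**Figure D1:**
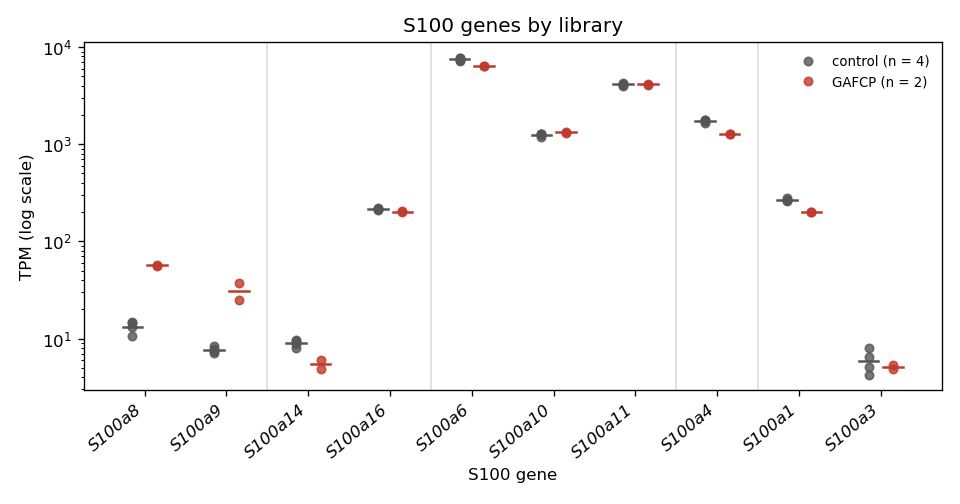
TPM of each S100 gene (log axis) in the 4 control and 2 GAFCP libraries, 1 point per library, with bars at group means; genes are grouped by role from neutrophil-type to other members. S100a8 and S100a9 sit higher with GAFCP, while the abundant S100a6 and S100a11 hardly move on this scale.

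Levels differed widely, since 4 members averaged from 1249 to 7496 TPM in controls and 3 from 5.93 to 8.97 TPM. In controls the order from the highest was S100a6, S100a11, S100a4, S100a10, S100a1, S100a16, S100a8, S100a14, S100a9 and S100a3. S100a14 and S100a9 overlapped in range, as did S100a9 and S100a3, while all other neighbours in this order were separate. With GAFCP S100a10 stood above S100a4, S100a9 stood above S100a14, and the neighbours S100a1 and S100a16, and S100a14 and S100a3, overlapped. The 10 members together held 1.46%, 1.54%, 1.55% and 1.51% of all TPM in control libraries 1 to 4 and 1.36% and 1.37% in the GAFCP libraries, so the groups did not overlap. S100a6 alone made up 49.3% to 49.8% of the members' TPM in controls and 47.3% and 46.5% with GAFCP.

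S100a8, 1 chain of calprotectin, was listed at 10.5, 14.4, 14.8 and 13.2 TPM in control libraries 1 to 4 and at 57.7 and 55.5 TPM in GAFCP libraries 1 and 2. Both GAFCP libraries lay above every control. The control mean was 13.2 ± 1.90 TPM (SD, n = 4) and the GAFCP mean 56.6 ± 1.57 TPM (SD, n = 2), a difference of 2.03 ± 0.12 (SE) on the log2 scale at an adjusted p of 7.2e-06 in limma. Its place among all genes of the table went from 7514 to 2413.

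S100a9, its partner chain, was listed at 7.84, 8.41, 7.43 and 7.11 TPM in the controls and at 24.8 and 37.0 TPM with GAFCP. Again the groups did not overlap, although the GAFCP libraries differed more from each other than the controls did. The mean went from 7.70 ± 0.562 to 30.9 ± 8.60 TPM (SD), a difference of 1.85 ± 0.14 (SE) on the log2 scale at an adjusted p of 3.1e-05 in limma. The level of S100a8 was 1.34 to 1.99 times that of S100a9 in controls, and 2.33 and 1.502 times in GAFCP libraries 1 and 2. The ratio thus overlapped between the groups. Together the pair made up 0.126% to 0.148% of the members' TPM in controls and 0.609% and 0.675% with GAFCP.

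Leukocyte markers moved with the calprotectin pair. All 10 pan-leukocyte markers were called higher, and their summed level went from 109.7 to 130.0 TPM in controls to 330.1 and 341.6 TPM with GAFCP. Ptprc, which encodes the leukocyte surface protein CD45, averaged 2.73 and 9.79 TPM, and none of these 10 was at 0 in all libraries. Summed S100a8 and S100a9 came to 6.41, 7.99, 10.2 and 6.63 times the level of Ptprc in the controls and 8.15 and 9.79 times with GAFCP, so this ratio overlapped between groups. Set against Lyz2, a lysozyme gene of macrophages and neutrophils, the pair came to 0.0452 to 0.0548 times its level in controls and 0.0607 and 0.0683 times with GAFCP, and these ratios did not overlap. Whether leukocytes in the sorted cells carried the change was not tested.

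Neutrophil markers other than the pair were mixed. Of 20 listed genes 11 were tested and 9 of these were called higher, among them Clec4d, a C-type lectin receptor (7.85 to 24.5 TPM), Csf3r, the G-CSF receptor (1.65 to 6.56 TPM), Clec4e (1.22 to 5.52 TPM), Hdc, which makes histamine (0.343 to 2.69 TPM), and the collagenase Mmp8 (0.855 to 2.93 TPM). Hdc and Il1r2 stayed under 1 TPM in every control, and Mmp8 reached it in control library 4 only. These genes were thus tested only through the GAFCP libraries, so the filter tilts the count of genes called towards higher. Mmp9 (10.1 and 10.7 TPM) and Retnlg (2.63 and 1.77 TPM) were not called. The defining granulocyte gene Ly6g stayed at or below 0.184 TPM in every library, and the granule genes Camp, Ltf and Ngp reached 0.863, 0.455 and 0.964 TPM at most. Camp, Ltf and Ngp were too low to be tested, yet both GAFCP values of each lay above every control value. Those of Ly6g overlapped with the controls. Elane, neutrophil elastase, was listed at 0 in every library. The number called higher was 6 without GAFCP library 1 and 5 without GAFCP library 2. Summed, the 20 markers ranged from 30.6 to 32.9 TPM in controls and stood at 71.0 and 73.2 TPM with GAFCP (two-sided exact permutation test, p = 0.0667, the smallest that 15 arrangements allow; adjusted p = 0.0762 over 8 marker lists).

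**Figure D2:**
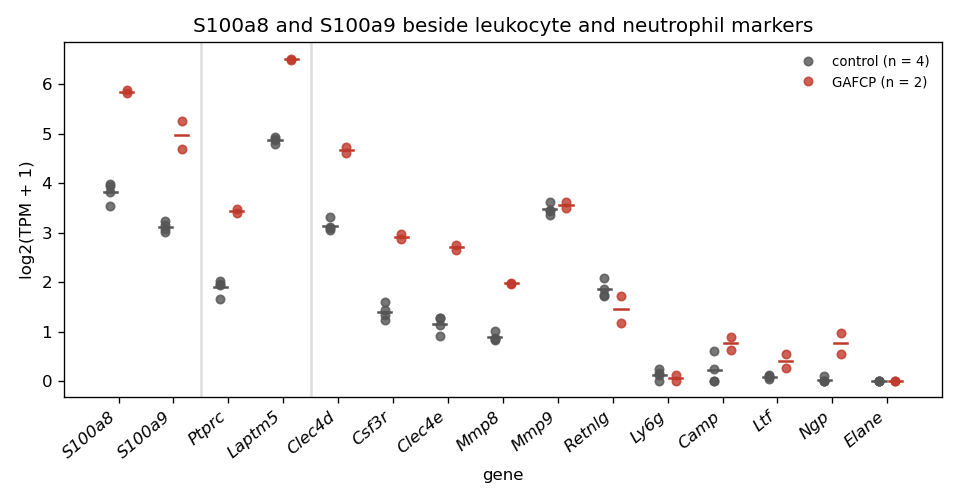
log2(TPM + 1) of S100a8 and S100a9, of 2 pan-leukocyte markers and of 11 neutrophil markers in each library, with bars at group means of the log2 values. Ptprc, Clec4d and Csf3r are higher with GAFCP along with the pair, and Ly6g and Elane stay at or near 0 in both groups.

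Other marker lists gave the wider setting. Summed macrophage and monocyte markers (20 of 20 called higher) went from 3354 to 3582 TPM in controls to 8765 and 8722 TPM. Most of this sum came from Plac8 (1747 and 2309 TPM on average), Apoe (557 and 2780 TPM) and Lyz2 (412 and 1357 TPM), while Csf1r averaged 18.1 and 94.7 TPM. T and NK cell markers (9 of 9 tested) went from 5.91 to 8.12 TPM to 43.3 and 39.1 TPM. Cd3e, Cd3g, Cd4 and Cd8b1 stayed under 1 TPM in every control, and Cd2 and Nkg7 reached it in 1. These genes were thus tested only through the GAFCP libraries, which tilts that count towards higher. Fibroblast and pericyte markers (10 higher and 2 lower of 15, with 1 lower when control library 2, control library 4 or either GAFCP library was left out) summed to 236.9 to 260.1 TPM and then 387.8 and 388.5 TPM. Epithelial and ductal markers (2 higher and 12 lower of 17) summed to 7647 to 8072 TPM and then 5592 and 5629 TPM. Of the 2 genes called higher, Ovol1 stayed under 1 TPM in every control. It was tested only through the GAFCP libraries, so with either of these left out it was no longer tested. Krt19 averaged 1615 and 1021 TPM and Epcam 12.8 and 1.54 TPM. Epithelial keratin RNA was thus abundant in both groups, while Epcam was low with GAFCP. These 4 sums gave the same exact p as the neutrophil sum. Endothelial markers (3 higher, or 1 without GAFCP library 1, and 1 lower of 5; exact p = 0.333) and keratinocyte markers (2 higher and 1 lower of 6; exact p = 0.0667) split in direction. The keratinocyte sum came mostly from Sprr1a, at 717.6 TPM on average in controls and 1660 TPM with GAFCP.

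Both epithelial-type members were called lower, as were S100a4, S100a1 and S100a6, which are of other types. S100a14 was listed at 8.86, 9.76, 7.92 and 9.35 TPM in controls and at 4.88 and 6.01 TPM with GAFCP. Every GAFCP value lay below every control value. The mean went from 8.97 ± 0.791 to 5.45 ± 0.801 TPM (SD), a difference of -0.63 ± 0.11 (SE) on the log2 scale at an adjusted p of 0.0020 in limma. Epcam and the epithelial sum were lower in the same libraries, and their part in the change of S100a14 was not tested.

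S100a16, the more abundant epithelial-type member, was listed at 209.5, 216.9, 218.3 and 216.2 TPM in controls and at 203.0 and 198.4 TPM with GAFCP. The groups were separate by a narrow margin. The log2 change was -0.10 ± 0.03 (SE; limma adjusted p = 0.040), near the median of -0.07 over all tested genes. The call was lost under 8 of 19 alternatives. Among these, median-of-ratios scaling gave -0.03 (adjusted p = 0.66), and leaving out GAFCP library 1 or 2 gave adjusted p of 0.12 and 0.24. Leaving out control library 2 or 4 gave adjusted p of 0.061 and 0.10. Set beside these members, the calprotectin pair came to 8.41 to 10.04 TPM per 100 TPM of S100a14 and S100a16 in controls and to 39.7 and 45.2 with GAFCP.

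Of the annexin-binding members, S100a6 (calcyclin) was the most abundant of all members and the seventh of all genes in both groups. It was listed at 7209, 7671, 7676 and 7426 TPM in controls and at 6414 and 6381 TPM with GAFCP. The GAFCP libraries lay below all controls. The log2 change was -0.23 ± 0.03 (SE; limma adjusted p = 8.6e-04), and the call was lost under scaling by the median of ratios (-0.16, adjusted p = 0.068) and with quantile normalization (-0.04, adjusted p = 0.51). It was also lost with the replicate number as a block (adjusted p = 0.058).

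S100a11 (calgizzarin) was listed at 3971, 4183, 4302 and 4104 TPM in controls and at 4086 and 4210 TPM with GAFCP. These ranges overlapped, and the log2 change was 0.0033 ± 0.036 (SE; limma adjusted p = 0.95). Its sign was negative under 6 of 19 alternatives, and quantile normalization called it higher (0.12, adjusted p = 4.8e-04). S100a10 (p11), which has lost the ability to bind calcium and forms a tetramer with annexin A2, was listed at 1198, 1265, 1263 and 1272 TPM in controls and at 1308 and 1339 TPM with GAFCP. Both GAFCP libraries lay above the controls, yet the log2 change of 0.08 ± 0.03 (SE) did not pass (limma adjusted p = 0.075). It passed under scaling by the median of ratios (0.16, adjusted p = 0.035) and with the TPM rescaled without Mir6236 (0.08, adjusted p = 0.039), a microRNA gene whose row alone held 7.59% to 11.2% of each library's TPM.

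S100a4 (metastasin) was listed at 1668, 1767, 1772 and 1729 TPM in controls and at 1259 and 1275 TPM with GAFCP. The groups were far apart relative to the spread within each. The mean went from 1734 ± 48.1 to 1267 ± 11.3 TPM (SD), a difference of -0.45 ± 0.03 (SE) on the log2 scale at an adjusted p of 2.1e-05 in limma. Fibroblast markers, from cells in which S100a4 is also known, summed higher in the same libraries, and their part in the value of S100a4 was not tested.

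S100a1, known for its work in cardiac muscle, was listed at 277.0, 262.8, 266.8 and 268.5 TPM in controls and at 200.7 and 201.8 TPM with GAFCP. It fell by 0.42 ± 0.03 on the log2 scale (SE; limma adjusted p = 3.7e-05), with no overlap between groups. S100a3, known from hair follicles, was listed at 5.08, 7.89, 4.26 and 6.48 TPM in controls and at 4.83 and 5.35 TPM with GAFCP, and did not pass (log2 change -0.16 ± 0.20, SE; limma adjusted p = 0.54). The annotated span of S100a3 contains S100a2 on the same strand, and how reads were divided between them was not examined. Over the 10 members the groups did not overlap for 3 above and 5 below, beside 61.6% of all genes tested.

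**Figure D3:**
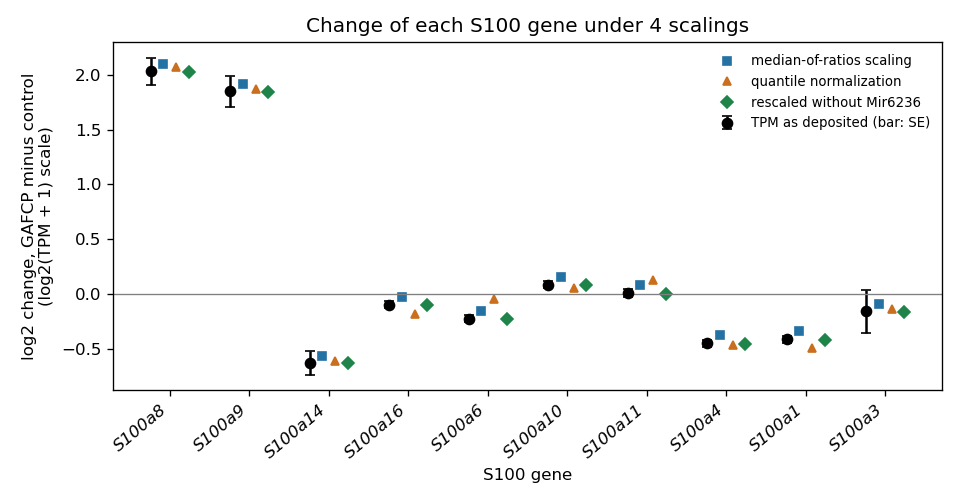
log2 change (GAFCP minus control, log2(TPM + 1) scale) of each S100 gene with the TPM as deposited (circles, bars show the SE) and under 3 other scalings. S100a8 and S100a9 stay near 2 and S100a14, S100a4 and S100a1 stay below 0 in all 4, while S100a11 lies near 0 and changes sign.

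Of the 7 other S100 genes in the table, 5 were tested, 0 were called higher and 3 lower in limma. At an unadjusted p under 0.05 the number higher was also 0, and limma was the only tool run. S100g (calbindin D9k, an intestinal calcium carrier) was listed at 26.1, 27.2, 25.7 and 21.7 TPM in controls and at 9.71 and 11.02 TPM with GAFCP, a difference of -1.20 ± 0.10 (SE) on the log2 scale at an adjusted p of 3.7e-05 in limma. S100a13, which takes part in the release of proteins that lack a signal peptide, averaged 153.5 ± 9.40 and 115.6 ± 5.04 TPM (SD; log2 change -0.41). S100b, known from glia, averaged 2.43 ± 1.63 and 0.316 ± 0.155 TPM (SD; limma adjusted p = 0.036). The S100b controls fell into 3.45 and 4.18 TPM in libraries 1 and 2 and 1.05 and 1.04 TPM in libraries 3 and 4, and it no longer passed when control library 1 was left out (adjusted p = 0.058) or with either GAFCP library left out (adjusted p = 0.16 and 0.10). S100a7a and S100a2 were not called, and S100a5 and S100z stayed too low to test.

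Receptors of S100 proteins did not move as 1 group. Of 11 tested, 3 were higher and 4 lower, with a median log2 change of -0.05. The integrin chains Itgam and Itgb2, which are also leukocyte genes, were among those higher, Itgam at 11.6 and 24.1 TPM and Itgb2 at 15.9 and 32.4 TPM on average (log2 changes 0.995 and 0.98). Ager, which encodes RAGE, went from 6.76 ± 0.539 to 3.49 ± 0.629 TPM (SD; log2 change -0.79 ± 0.11, SE; limma adjusted p = 7.1e-04). Tlr4 averaged 8.08 and 7.77 TPM and was not called (adjusted p = 0.68). Cd36, a scavenger receptor that binds fatty acids, changed by -0.76 and the adhesion molecule Alcam by -0.67.

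The annexins, calcium-dependent membrane binders, moved both ways. Of 12 tested, 2 were higher and 6 lower, with a median log2 change of -0.10. Anxa13 (274.4 to 128.9 TPM) and Anxa4 (458.9 to 278.5 TPM) had the largest decreases of the 12, and Anxa6 and Anxa11 changed by -0.39 and -0.43. Anxa2, the partner of S100a10, rose from 1576 ± 20.3 to 1890 ± 4.09 TPM (SD; log2 change 0.26 ± 0.03, SE; limma adjusted p = 1.2e-04). The level of S100a10 was 0.761 to 0.812 times that of Anxa2 in controls and 0.691 and 0.710 times with GAFCP, with no overlap. Anxa5 was called higher (log2 change 0.12) but had -0.03 with quantile normalization (adjusted p = 0.16), and was not called with either GAFCP library left out.

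Annexin A2 with S100a10 gathers plasminogen at the cell surface. Of 7 tested genes of the p11 complex and plasmin system, Anxa2 among them, 5 were higher and 1 lower, with a median log2 change of 0.26. The urokinase receptor Plaur rose by 0.87, urokinase (Plau) by 0.79 and Ahnak, a giant scaffold protein bound by S100a10, by 0.68. Serpine2, the gene of this list that was lower, averaged 10.2 and 6.74 TPM.

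**Figure D4:**
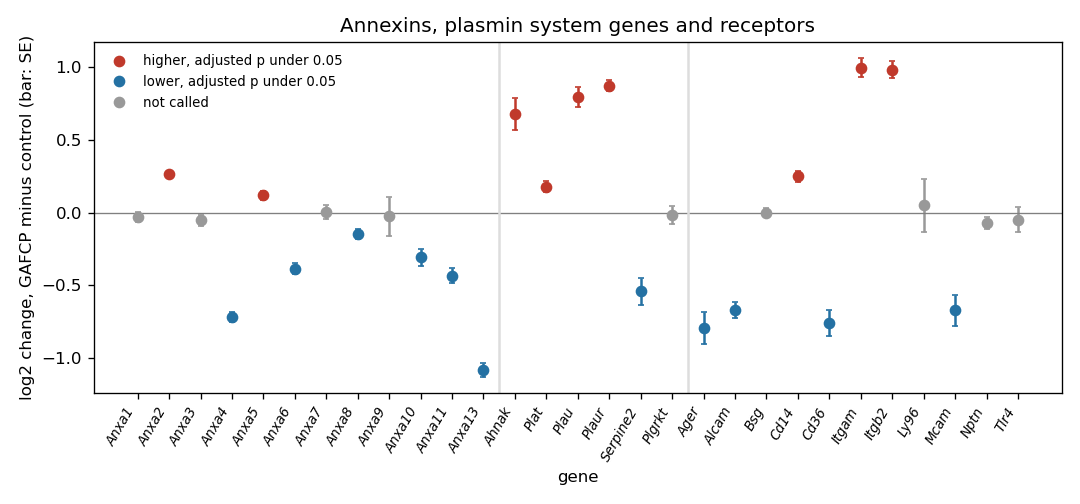
log2 change (GAFCP minus control) of 12 annexins, 6 further genes of the p11 complex and plasmin system and 11 S100 receptors, with the SE as bars and colors for the call. Plaur, Plau and Ahnak rise, Anxa2 rises by 0.26, and Anxa13, Anxa4 and Ager fall.

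Intracellular partners and other EF-hand genes gave a background for calcium-binding proteins. Of 11 partner genes 3 were higher and 2 lower (median -0.03), with Myh9, the non-muscle myosin heavy chain bound by S100a4, at a log2 change of 0.41. That split depended on the scaling, at 4 higher and 0 lower by the median of ratios and 3 and 5 when rescaled without the 50 most abundant genes. It was 1 and 0 with either GAFCP library left out, 3 and 1 without control library 2 and 3 and 0 without control library 4. Of 12 other EF-hand genes, such as the calmodulins, 3 were higher and 8 lower (median -0.20). Of 14 tested neighbours of the S100 stretches on chromosome 3, 1 was higher and 4 lower (median -0.04; 0 and 2 without GAFCP library 2). In the plot of changes along the chromosome, S100a8 and S100a9 stand at the far end of the first stretch and every other member of that stretch lies below 0.

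**Figure D5:**
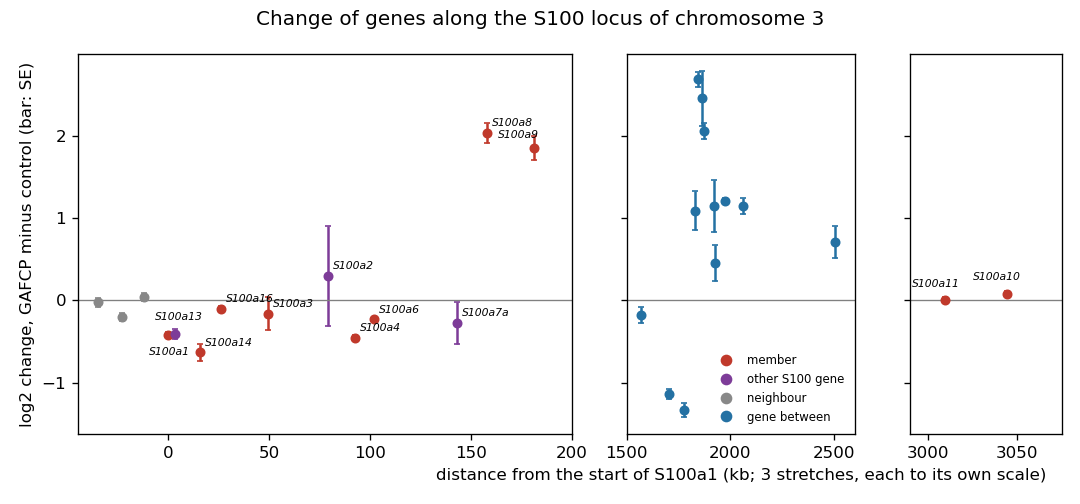
log2 change (GAFCP minus control, bars show the SE) against distance in kb from the start of S100a1 on chromosome 3, in 3 stretches each to its own scale; red marks members, purple other S100 genes, grey neighbours and blue genes between S100a9 and S100a11. S100a8 and S100a9 are near 2, the other members of that stretch lie below 0, and S100a11 and S100a10 lie near 0.

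Genes with profiles most like a member's were sought among 10054 genes whose 6-library mean reached 5 TPM, by the root mean square difference of centred log2(TPM + 1) values over the 6 libraries. Closest to S100a8 were Socs1 (difference 0.046), a brake on cytokine signaling, Clec4a3 (0.070) and Sprr2h (0.098), the last a cornified envelope gene on the same chromosome. Closest to S100a9 were Ptpn22 (0.13), Csrnp1 (0.13) and Folr2 (0.15). Closest to S100a14 were Kcnd1 (0.017), Klc4 (0.039) and Slc39a10 (0.053). Kcnd1 had a GAFCP mean of 4.52 TPM and entered through its controls (mean 7.70 TPM). Clec4a3 had a control mean of 2.65 TPM and entered only through the GAFCP libraries (mean 13.98 TPM), so its likeness to S100a8 rests partly on that filter. The 6 libraries fall into 2 groups, so the measure rests on the difference between the groups as well as on the spread within them.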

How the data were processed

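Per the labels' protocols, RNA of sorted tumor cells was extracted with a Qiagen micro kit and sequenced commercially. The authors deposited TPM per gene; the submitters' processing notes name Salmon and mm10, and neither the version nor the annotation is given here. TPM keeps no depth. Genes reaching 1 TPM in 2 or more libraries entered limma 3.58.1 (R 4.3.3) as log2(TPM + 1), with moderation by a mean-variance trend, 4 residual degrees of freedom and Benjamini-Hochberg adjustment over all genes tested. This scale understates the change of a low gene. The script was tested on simulated data with independent noise and far fewer changed genes than were called here. That test does not show how well the calls hold in these data. No count test was run on TPM.

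The members and gene lists were chosen with earlier results of these data known. Named were all members, up to 5 called genes by smallest p of the other S100, receptor, annexin, plasmin and neutrophil lists, fixed genes with a defining role, and the 3 nearest profiles of S100a8, S100a9 and S100a14. Lyz2, Elane, Retnlg, Mmp9, Anxa5, Serpine2, Myh9, Sprr1a, Mir6236, S100a2, S100a5, S100a7a and S100z were named after their values were seen, as were the genes between S100a9 and S100a11. Ovol1 was also named after its values were seen. An item of the plasmin list is not reported here, and the list's counts leave it out. Positions are from GENCODE M21 and promoters from RefSeq, both on GRCm38. Alternatives changed the pseudocount, filter, scaling, variance model, library weights, block and libraries used.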

Additional observations from a re-analysis of the deposited data

Results flagged for a closer look

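The control libraries of S100a10 stood unevenly. Control library 1, at 1198 TPM, lay apart from the other 3 at 1263 to 1272 TPM, with a gap of 0.880 of the control range, above the 95% limit of Dixon's test for 4 values; chance marks about 1 group in 20, and 10 members were looked at. Control library 1 also held the lowest control value for 6 of the 10 members and the highest share of Mir6236, 11.2% of its TPM beside 7.59% to 10.7% in the other controls. With the TPM rescaled without Mir6236, the gap for S100a10 was 0.295.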

How the results depend on the processing

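Each member's change was recomputed under 19 alternatives, 1 of them, rescaling without Mir6236, added after the data were seen. S100a8 (1.77 to 2.11), S100a9 (1.48 to 2.13), S100a14 (-0.76 to -0.42), S100a4 (-0.48 to -0.38) and S100a1 (-0.50 to -0.34) kept their direction and call in all 19, and S100a3 was called in none. S100a11 had a negative log2 change when rescaled without the 50 most abundant genes (-0.024), without Mir6236 (-0.0014) or with control libraries 3 and 4 only (-0.019), and without 1 library ranged from -0.018 to 0.025. Anxa5 had -0.033 with quantile normalization. The members called lower were 3 with median-of-ratios scaling, 3 with the replicate block, 4 to 5 without 1 library, and 5 as reported; the block ended the calls of S100a16 (adjusted p = 0.16) and S100a6 (adjusted p = 0.058). With 1 library left out, genes called over all tested ranged from 4258 (without GAFCP library 1) to 7226 (without control library 3), and were 4313 without GAFCP library 2; the other alternatives gave 5367 (mean of 5 TPM) to 7605 (array weights), beside 6515 as reported; with 1 GAFCP library left, it is assumed to vary as the controls do. With a filter on a mean of 5 TPM, which tests fewer genes, neutrophil markers called higher went from 9 to 1, T and NK markers from 9 to 0, fibroblast markers from 10 to 6 and receptors called lower from 4 to 2. The genes lost from these counts averaged under 5 TPM over the libraries and were no longer tested. The labels do not say that a replicate number marks a shared animal or day, and same-numbered libraries did not deviate together (correlations -0.0073 and -0.020); the replicate block used 4 libraries and called 6046 genes. Apart from the genes no longer tested and the smaller number of genes or libraries, the cause of these differences was not tested. A mean of log2 values in place of summed TPM gave the same exact p for each marker list except endothelial (0.0667) and keratinocyte (0.467).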

Other observations

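Between S100a9 and S100a11 on chromosome 3 lies the epidermal differentiation complex, whose genes build the cornified envelope of skin and of other stressed epithelia. The table lists 55 genes in this interval, of which 12 were tested, 8 called higher and 2 lower in limma, with a median log2 change of 1.12, a set looked at after the values were seen. Sprr1a, a small proline-rich cross-linking protein, averaged 717.6 ± 20.6 TPM in the 4 controls and 1660 ± 17.7 TPM in the 2 GAFCP libraries (SD), a difference of 1.21 ± 0.03 (SE) on the log2 scale at an adjusted p of 1.1e-07 in limma. Sprr2e went from 4.85 ± 0.437 to 36.5 ± 2.26 TPM (SD), Sprr2h from 12.2 ± 1.45 to 53.6 ± 1.40 TPM (SD), and involucrin (Ivl), a scaffold of the envelope, from 5.71 ± 0.615 to 13.8 ± 0.349 TPM (SD). Sprr2a2 (41.5 to 18.3 TPM) and Sprr2a3 (32.1 to 12.2 TPM) were lower. The Sprr2 genes are near-identical copies in part, and how reads were divided among them was not examined. Lor, loricrin of the mature envelope, averaged 5.15 and 4.42 TPM and was not called.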
